A study of Mus musculus with 6 samples.

Results

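The mitochondrial SLC25 carriers were examined in whole testes of C57BL/6 mice, a standard inbred laboratory strain. Members were all genes whose symbol in the deposited tables begins with Slc25a followed by a digit, leaving out Slc25a28 and Slc25a37, which gave 45 genes of the 24411 listed. RNA sequencing libraries came from 3 mice with the genotype label MRP5-/- and MRP9-/-, called libraries labelled DKO below, and from 3 mice of matched age with the label Wildtype, called libraries labelled WT. The proteins MRP5 and MRP9 are membrane transporters of the ABCC family, encoded by Abcc5 and Abcc12, and the series title places the study in male reproduction and mitochondrial function. The labels give neither the age of the animals nor how either allele was made. Both groups share the strain, the tissue and the extraction protocol, and the labels name no drug or other treatment. All 45 members passed the filter on low counts and entered the comparison of the libraries labelled DKO with those labelled WT.

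SLC25 proteins are small, mostly inner-membrane carriers built from a repeated domain, and they move the substrates that the sealed inner membrane would otherwise keep apart. ADP/ATP carriers bring ADP in and send ATP out, the phosphate carrier supplies phosphate for ATP synthesis, and other members move carboxylates, amino acids, acylcarnitines, glutathione or cofactors. In the testis, Slc25a31 encodes an ADP/ATP carrier of germ cells that meiotic cells depend on, while Slc25a5, its X-linked relative, lies on a chromosome that is silenced in meiosis.

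Total expected counts, the estimated fragments assigned to genes, were 42673615 to 67131103 in the libraries labelled DKO and 26753721 to 31745969 in those labelled WT. The mean fragment length was 275 to 317 bases and 230.4 to 258 bases, so that neither measure overlapped between the groups. Abcc12 was counted at 72.6 to 82.4 CPM (counts brought to a common library size by TMM scaling) in libraries labelled DKO against 158 to 165 CPM, whereas Abcc5 was higher in them, at 16.7 to 17.0 against 10.5 to 12.3 CPM. Both transcripts were thus still counted in libraries labelled DKO, and a genotype label alone does not set a transcript amount. The groups are named by their labels throughout. Over all 17110 genes tested with the edgeR quasi-likelihood test, 10.8% had an adjusted p under 0.05 (called here). By direction, 5.75% were called higher and 5.1% lower in libraries labelled DKO.

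The carriers spanned a wide range of levels in the libraries labelled WT. Expressed per transcript length as TPM (each transcript's share of all transcripts, on the scale the authors deposited), 22 of the 45 had a mean of at least 10, another 21 lay between 1 and 10, and 2 lay under 1. Slc25a39, a carrier needed for mitochondrial glutathione uptake, stood far above the others at 644, 604 and 627 TPM, which was above 99.1% of all listed genes. It made up 42.5 to 47.6% of the summed TPM of the 45 carriers in libraries labelled WT and 43.9 to 46.4% in those labelled DKO. Its closest relative, Slc25a40, had 3.32, 2.73 and 3.40 TPM.

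Below Slc25a39, the order of mean levels in libraries labelled WT began with Slc25a3, the phosphate carrier, at 91.9 ± 6.35 TPM (SD, n = 3). Next came Slc25a5 at 72.8 ± 15.5 TPM, whose range overlapped that of Slc25a3. Slc25a2, an ornithine carrier, had 57.2 ± 3.16 TPM and overlapped Slc25a5. Slc25a33, a pyrimidine nucleotide carrier, had 51.2 ± 2.06 TPM, and its 3 values lay below those of Slc25a2. Slc25a4 (46.8 ± 9.31 TPM), the calcium-regulated Slc25a25 (41.4 ± 0.423 TPM), the citrate carrier Slc25a1 (38.0 ± 3.54 TPM) and Slc25a31 (36.2 ± 0.212 TPM) followed, each overlapping its neighbour in the order. Slc25a31 ranked 9 among the members in libraries labelled WT and 5 in those labelled DKO, where it had 45.4 ± 4.52 TPM. At the low end, Slc25a15, the other ornithine carrier, had 0.507 ± 0.0551 TPM. Slc25a48 had 0.290 ± 0.131 TPM and only 4 to 23 expected counts per library, so that a change in it was not detectable at this depth.

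**Figure D1:**
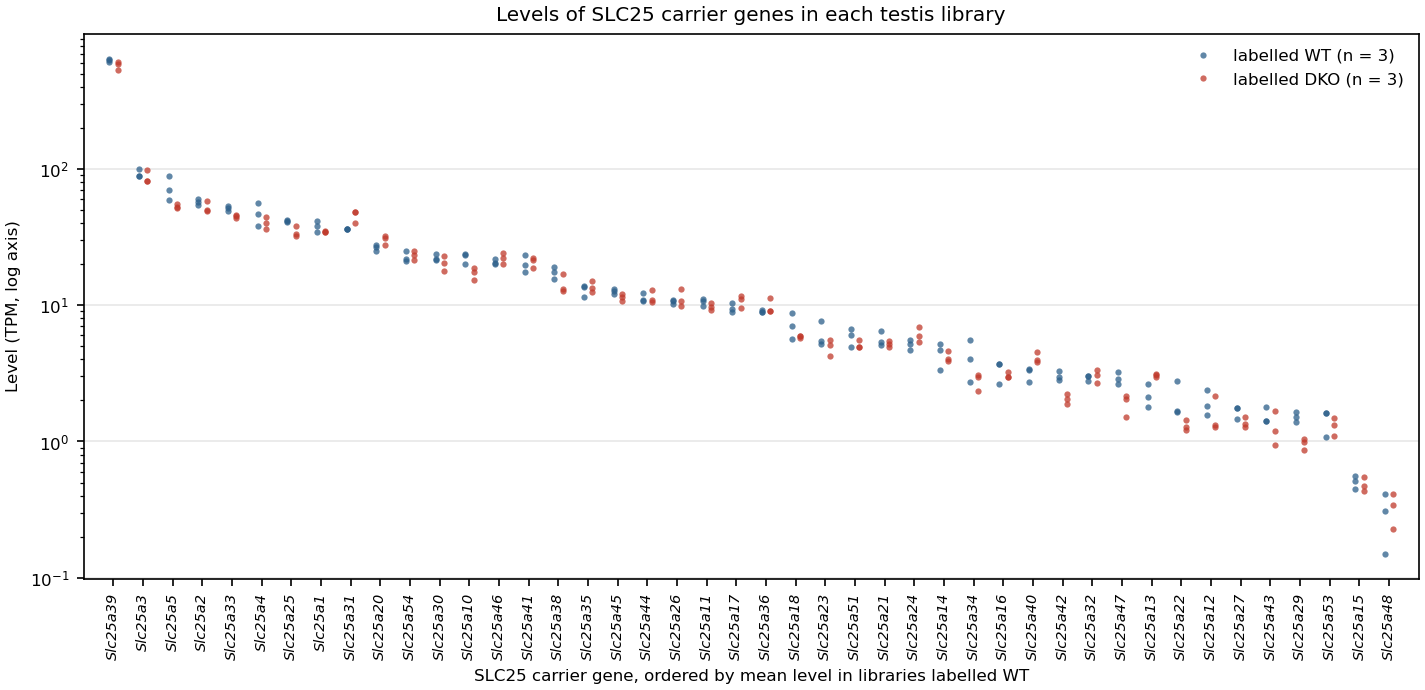
Level of the carriers in TPM on a log axis, 1 point per library, ordered by the mean in the 3 libraries labelled WT (blue) beside the 3 labelled DKO (red). Slc25a39 lies between 535 and 644 TPM, far above all other members, and most members have blue and red points at similar heights.

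Compared between the groups, 5 of the 45 carriers (11.1%) were called, 2 higher and 3 lower in libraries labelled DKO, against the 10.8% called over all tested genes. Slc25a31 and Slc25a13 rose, and Slc25a5, Slc25a42 and Slc25a10 fell. The share called was near that of all genes, so the count says nothing particular about the carriers. With a correction for each library's effective gene lengths, 5 carriers were called beside 9.71% of all genes. Limma on log2(TPM + 1) and log2(TPM + 0.1) called 0 carriers each, beside 2.6% and 2.95% of all genes, and edgeR with fragment length as a covariate called 0, beside 0.00584%. Without DKO replicate 1, WT replicate 2 or WT replicate 3 the count was 0, beside 0.0643%, 0.0747% and 0.0402% of all genes. The log2 fold changes of the 45 carriers ran from -0.61 to 0.54 with a median of -0.07, beside a median of -0.0042 over all tested genes. With fragment length as a covariate the carrier median turned to 0.0077, beside -0.0088 over all genes, and 24 carriers were positive and 21 negative. Of the 45, 29 had a negative and 16 a positive log2 fold change, and 33 lay within 0.25 of no change. In CPM, 15 carriers (33.3%) had no overlap between the groups, against 35.9% of all tested genes. The summed TPM of the carriers was 1219, 1260.4 and 1357 in libraries labelled DKO and 1352.6, 1420.5 and 1379.9 in those labelled WT. The highest library labelled DKO overlapped the lowest labelled WT, and the group means differed by -7.62%. As a share of the expected counts, the carriers together took 1314 to 1444 of each 1e6 counts in libraries labelled DKO and 1466 to 1523 in those labelled WT, without overlap (-7.92%).

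**Figure D2:**
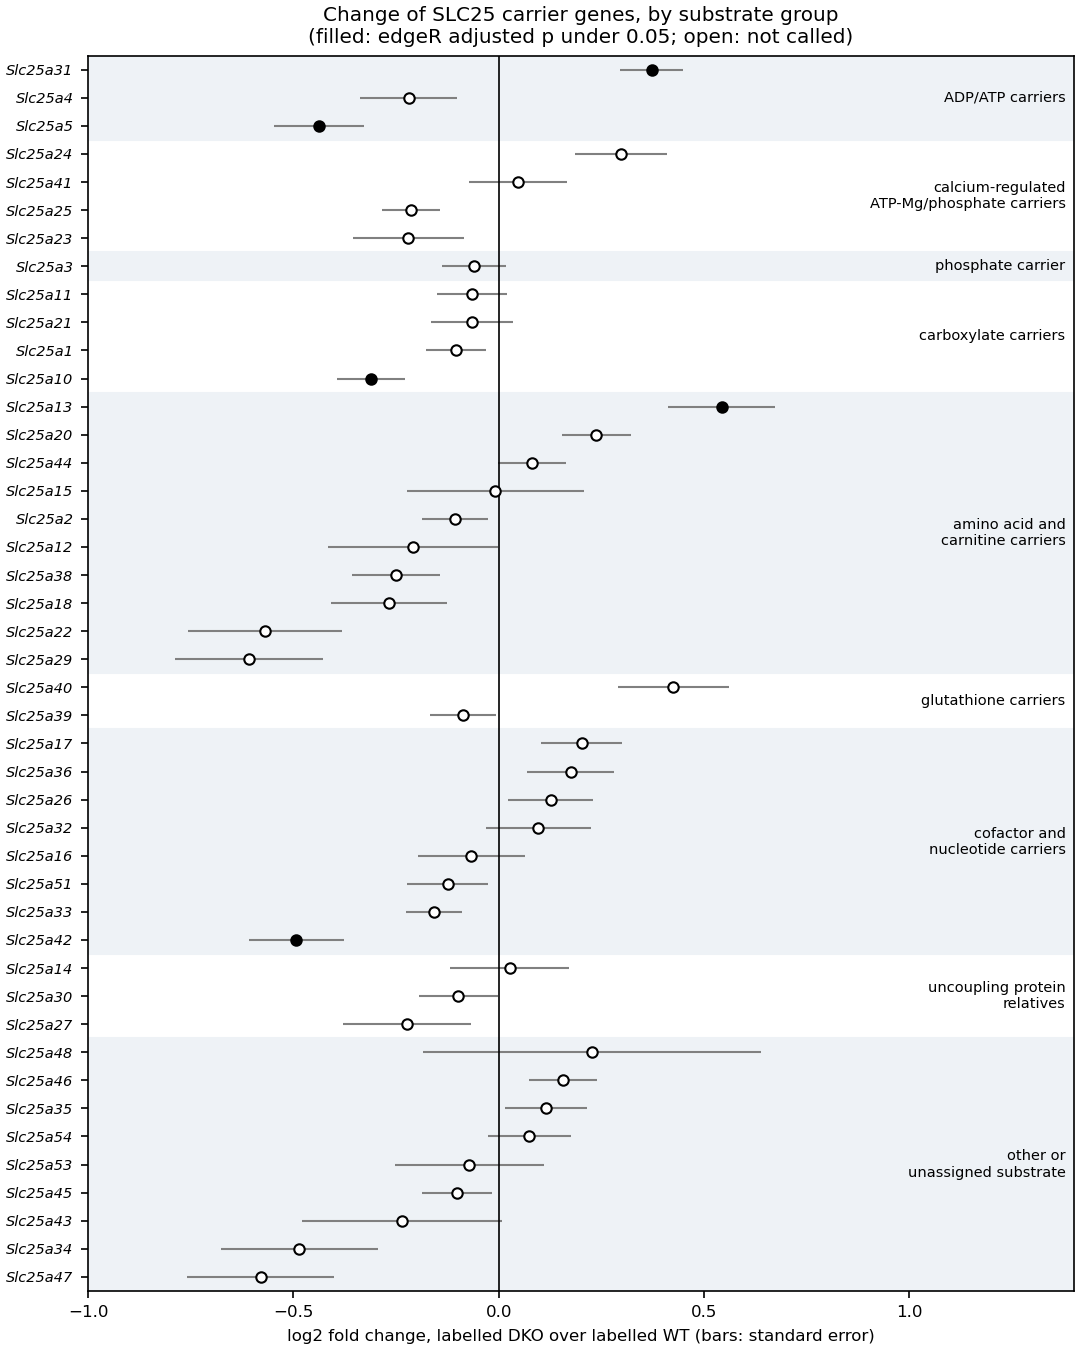
Log2 fold change of the carriers, labelled DKO over labelled WT, with its standard error, in bands by substrate group. Filled points mark the 5 called members, of which 2 lie right and 3 left of the line at no change.

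The ADP/ATP carriers, which exchange cytosolic ADP for mitochondrial ATP, did not move as a block. Slc25a31 (chromosome 3, 40708871 to 40726094, mm10/GRCm38) had 61.7, 53.2 and 59.0 CPM in libraries labelled DKO and 46.3, 43.0 and 45.2 CPM in those labelled WT. All 3 values labelled DKO lay above all 3 labelled WT. It rose by 29.4%, a log2 fold change of 0.37 (SE 0.0771; adjusted p = 0.0269 by the edgeR quasi-likelihood test). Slc25a5 (chromosome X, 36795597 to 36798808), the carrier of dividing and many somatic cells, had 35.8, 38.3 and 37.8 CPM against 42.3, 59.9 and 49.3 CPM. Again the groups did not overlap, and the libraries labelled WT were more spread, with replicate 2 highest. Slc25a5 fell by 26.2%, or -0.44 on the log2 scale (SE 0.110; adjusted p = 0.0360 by edgeR). Slc25a4 (chromosome 8, 46207168 to 46211062), the carrier of heart and muscle, had 20.5, 23.7 and 24.6 CPM against 22.3, 31.2 and 26.6 CPM. Its groups overlapped, with a difference of -0.22 on the log2 scale (SE 0.119; adjusted p = 0.226 by edgeR).

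The balance of the 3 genes shifted with these values. Slc25a31 made up 35.5, 30.3 and 32.6% of the summed ADP/ATP carrier TPM in libraries labelled DKO and 27.1, 19.9 and 23.8% in those labelled WT, without overlap. The share of Slc25a5 was 37.7, 39.6 and 37.5% against 44.3, 49.1 and 46.0%, also without overlap, while that of Slc25a4 overlapped at 26.8 to 30.1% against 28.6 to 31.01%. Per Slc25a5 transcript there were 0.767 to 0.941 Slc25a31 transcripts in libraries labelled DKO and 0.406 to 0.613 in those labelled WT. Summed over the 3 genes, the level was 138 ± 7.64 TPM against 156 ± 24.9 TPM (SD, n = 3 each), with overlapping ranges. These shares are descriptions of genes chosen with results known, and no test was made of them.

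**Figure D3:**
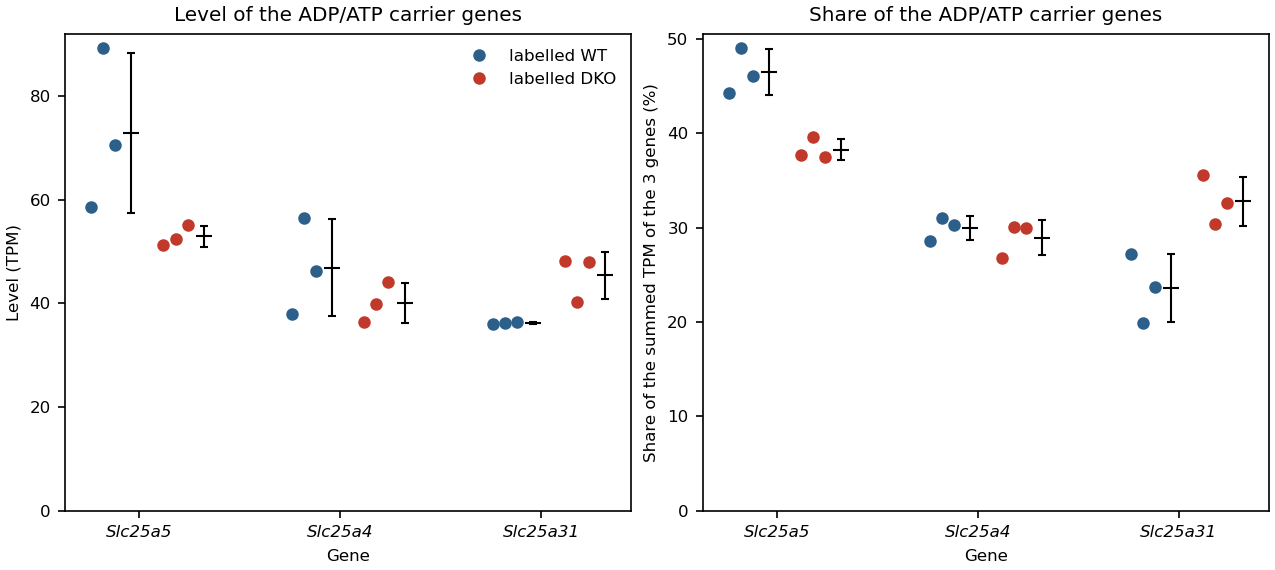
TPM (left) and share of the summed TPM (right) of the ADP/ATP carrier genes, 1 point per library, blue for labelled WT and red for labelled DKO, with the mean and SD of 3 libraries beside them. The red points of Slc25a31 lie above its blue points and those of Slc25a5 below, while the points of Slc25a4 overlap.

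Both calls depended on single libraries and on the fit. Slc25a31 passed the threshold in 8 of 15 other fits, with log2 fold changes from 0.14 to 0.42 and adjusted p from 0.0016 to 0.999. Leaving out DKO replicate 1, WT replicate 2 or WT replicate 3 ended its call (edgeR adjusted p = 0.107, 0.106 and 0.101), as did removing each library's trend on transcript length and GC content (0.14; adjusted p = 0.2503). Slc25a5 also passed in 8 of 15, from -0.57 to -0.10, with adjusted p from 0.00306 to 0.999. Its call ended without DKO replicate 1, DKO replicate 2, WT replicate 2 or WT replicate 3 (adjusted p = 0.143, 0.0767, 0.125 and 0.106). Neither gene passed with limma on log2(TPM + 1), at adjusted p = 0.0635 for Slc25a31 and 0.0858 for Slc25a5, nor on log2(TPM + 0.1), at 0.0631 and 0.0836. With the mean fragment length as a covariate the log2 fold changes were 0.23 and -0.10 (edgeR adjusted p = 0.999 for both).

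Markers of the cell types of the testis were read in the same libraries, and their counts of called genes stand beside 10.8% called, 5.75% higher and 5.1% lower over all tested genes. In bulk tissue, fewer cells of a type and less RNA per cell cannot be told apart. The summed TPM of 10 spermatocyte markers, cells in meiosis, was 856 to 1063 in libraries labelled DKO. In those labelled WT it was 764 to 821, without overlap. Of the 10, 2 were called, Sycp3 and Hormad1, both higher, and the Hormad1 groups overlapped in CPM. On the log2 scale 8 were positive and 2 negative (Piwil1 at -0.0055 and Ccna1 at -0.08). Both calls ended with the fragment length covariate and without DKO replicate 1, WT replicate 2 or WT replicate 3. In each of these fits 0 of all tested genes were called higher. Spermatogonial markers (0 of 9 tested called by edgeR and 0 at an unadjusted p under 0.05; 99.8 to 119 against 101 to 119 TPM) and spermatid markers (1 of 10 called higher and 1 lower; 109638 to 119912 against 102647 to 112208 TPM) overlapped. Of the somatic lists, Leydig markers had 3 of 9 called, all lower (883 to 1536 against 1516 to 3170 TPM), and Sertoli markers had 3 of 10, all lower (962 to 1198 against 1091 to 1455 TPM). A few abundant genes set these sums. In every library Insl3 made up most of the Leydig sum (2576 of 3170 TPM in WT replicate 2). Clu made up most of the Sertoli sum (1139 of 1455 TPM there), and Prm1, Prm2, Tnp1 and Tnp2 together most of the spermatid sum. Markers of peritubular myoid and smooth muscle had 1 of 5 called, lower (64.3 to 75.2 against 75.4 to 111 TPM). With the fragment length covariate, 1 of all tested genes was called, so at most 1 of the somatic calls could hold in that fit. None of 8 macrophage (52.0 to 64.5 against 49.7 to 89.7 TPM) or 5 endothelial markers (8.78 to 11.0 against 10.9 to 12.6 TPM) was called by edgeR, with 3 and 1 at an unadjusted p under 0.05. Blood markers (0 of 2 tested called, 0 at an unadjusted p under 0.05) summed to 20.3 to 37.8 against 21.5 to 24.6 TPM, and 2 of the 5 were at 0 in every library. No marker of the other lists was at 0 in every library. WT replicate 2 had the highest level of Slc25a5 and of Slc25a4 and also the highest Leydig, Sertoli, myoid, macrophage and endothelial sums. Its spermatogonial sum was also the highest, by little (119.34 against 119.15 TPM in DKO replicate 3). DKO replicate 1 had the highest Slc25a31 and the highest spermatocyte sum. Other ranks differed. DKO replicate 3 had more Slc25a31 than DKO replicate 2 (59.0 against 53.2 CPM) but a lower spermatocyte sum (856 against 902 TPM). WT replicate 2 also had the shortest mean fragment length (230.4 bases) and DKO replicate 1 the longest (317 bases). The part of cell composition in the carrier results was not tested.

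Upstream sequences are shown for the ADP/ATP carriers, whose balance shifted, and for Slc25a13, the other carrier that rose. RefSeq promoter windows of GRCm38.p6 were matched for 35 of the 45 members, and the 250 bases before the annotated start were searched on both strands for 7 motifs. These were the NRF1 motif (GCGC, any base, then TGCGC; NRF1 regulates nuclear genes for mitochondria), the E2F motif (TTCCCGCC), the cyclic AMP response element (TGACGTCA), the GC box (GGGCGG), the box CCAAT, the core promoter motif TATAAA and the E-box (CACGTG). Sequences run 5′ to 3′ on the strand of the gene, with every match in capitals. They cover chr3:40708621-40708870 (plus strand) for Slc25a31, chrX:36795347-36795596 (plus) for Slc25a5, chr8:46211063-46211312 (minus) for Slc25a4 and chr6:6217174-6217423 (minus) for Slc25a13.
Slc25a31: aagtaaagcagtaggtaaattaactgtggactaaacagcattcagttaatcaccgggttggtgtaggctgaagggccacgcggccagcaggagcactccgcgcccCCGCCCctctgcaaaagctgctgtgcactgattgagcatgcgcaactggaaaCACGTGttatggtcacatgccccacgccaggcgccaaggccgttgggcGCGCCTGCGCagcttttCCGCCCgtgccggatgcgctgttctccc
Slc25a5: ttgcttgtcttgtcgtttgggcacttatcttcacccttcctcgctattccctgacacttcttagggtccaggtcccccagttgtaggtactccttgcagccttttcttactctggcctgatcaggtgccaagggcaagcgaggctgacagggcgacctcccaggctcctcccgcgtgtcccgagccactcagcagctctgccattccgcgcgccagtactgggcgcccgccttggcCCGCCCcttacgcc
Slc25a4: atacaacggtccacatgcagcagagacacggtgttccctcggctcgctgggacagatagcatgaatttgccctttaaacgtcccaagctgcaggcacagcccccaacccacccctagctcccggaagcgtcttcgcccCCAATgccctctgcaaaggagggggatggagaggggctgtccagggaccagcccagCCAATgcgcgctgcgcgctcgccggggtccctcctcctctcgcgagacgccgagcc
Slc25a13: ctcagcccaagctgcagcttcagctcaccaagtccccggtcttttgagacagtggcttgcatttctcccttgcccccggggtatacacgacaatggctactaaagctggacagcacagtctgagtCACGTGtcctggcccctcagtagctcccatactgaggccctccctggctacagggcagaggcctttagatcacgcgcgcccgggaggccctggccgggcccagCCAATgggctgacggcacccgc
Slc25a31 held an NRF1 match between 45 and 36 bases before the start, an E-box between 93 and 88 bases before it, and 2 GC boxes. Slc25a5 held 1 GC box, between 14 and 9 bases before the start, and Slc25a4 held 2 CCAAT boxes. Slc25a13 held a CCAAT box between 22 and 18 bases and an E-box between 125 and 120 bases before the start of its listed transcript, at 6217173. RefSeq's span of Slc25a13 reaches 6217304, so that 131 of the 250 bases printed, with both matches, lie inside that span. No match overlapped another in these windows, although an E2F match followed by C would also hold a GC box. Among the 35 members, 2 held the NRF1 motif (Slc25a3 and Slc25a31; 5.71%), against 7.71% of the 12876 tested genes with a window and 3.74% of all 32851 windows. The E-box was in 7 members (20.0%), against 9.03% of tested genes and 6.02% of all windows. Apart from Slc25a31 and Slc25a13, these were Slc25a1, Slc25a14, Slc25a15, Slc25a33 and Slc25a36. None of those was called, and their log2 fold changes ran from -0.16 to 0.17. The GC box was in 24 members (68.6%), against 56.6% and 32.7%. CCAAT was in 17 members (48.6%), against 39.8% and 33.8%. TATAAA was in 2 (5.71%), against 8.79% and 12.4%. The response element was in 2 (5.71%), against 2.77% and 1.55%, and E2F in 1 (2.86%), against 3.53% and 1.86%. Median CpG counts in the window were 12 for the members and 14 for tested genes, with a GC content of 59.6% and 58.4%. Of the called carriers whose windows are not printed, Slc25a42 held 6 matches, all GC or CCAAT boxes, and Slc25a10 held 0. A match is a description of these letters only.

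The mitochondrial aspartate-glutamate carriers feed the malate-aspartate shuttle, which brings reducing equivalents into mitochondria. Slc25a13, known as citrin, had 6.20, 6.09 and 5.85 CPM in libraries labelled DKO and 3.53, 4.81 and 4.04 CPM in those labelled WT. The libraries labelled DKO were tightly grouped above all those labelled WT. It rose by 45.7%, or 0.54 on the log2 scale, the highest value among the members (SE 0.130; adjusted p = 0.0343 by edgeR). Its relative Slc25a12 had 2.47, 2.43 and 3.83 CPM against 3.38, 4.06 and 2.78 CPM, overlapping, with a difference of -0.21 on the log2 scale (SE 0.208; adjusted p = 0.522 by edgeR). As a description chosen after the values were seen, Slc25a13 made up 58.7 to 70.0% of the TPM of the pair in libraries labelled DKO and 49.4 to 57.5% in those labelled WT. Slc25a13 passed in 6 of 15 other fits, from 0.36 to 0.67, with adjusted p from 0.0115 to 0.999. Its call ended without each library except DKO replicate 3 (without DKO replicates 1 and 2, adjusted p = 0.138 and 0.0795; without WT replicates 1, 2 and 3, 0.0604, 0.0706 and 0.109). It also ended with both limma fits (0.0921 and 0.0929 with pseudocounts of 1 and 0.1), with the fragment length covariate (0.999) and with the length and GC trend removed (0.0681).

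Slc25a42, which brings coenzyme A into mitochondria, had 3.84, 4.27 and 4.37 CPM in libraries labelled DKO and 6.00, 6.12 and 5.49 CPM in those labelled WT. The groups stood well apart. It fell by 28.9%, or -0.49 on the log2 scale (SE 0.116; adjusted p = 0.0333 by edgeR). Slc25a42 passed in 7 of 15 other fits and stayed between -0.54 and -0.32, with adjusted p from 0.0159 to 0.999. Its call ended without DKO replicate 1, DKO replicate 2, WT replicate 2 or WT replicate 3 (adjusted p = 0.125, 0.0633, 0.116 and 0.101), with limma (0.0573 and 0.0569 with pseudocounts of 1 and 0.1), with the covariate (0.999) and with the trend removed (0.0915).

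Slc25a10, the dicarboxylate carrier that exchanges malate or succinate for phosphate, had 40.2, 47.1 and 47.2 CPM in libraries labelled DKO and 52.4, 56.3 and 58.2 CPM in those labelled WT. DKO replicate 1 was the lowest, and the groups did not overlap. It fell by 19.4%, or -0.31 on the log2 scale (SE 0.0828; adjusted p = 0.0400 by edgeR). An exon of Slc25a10 overlaps one of Gm11788 on the opposite strand, and strand handling is not given in the sources used here, so its count is uncertain. Slc25a10 passed in 7 of 15 other fits, from -0.38 to -0.06, with adjusted p from 0.0106 to 0.999. It was lost without DKO replicate 1, DKO replicate 2, WT replicate 2 or WT replicate 3 (adjusted p = 0.132, 0.0650, 0.128 and 0.138) and with limma (0.0695 and 0.0676 with pseudocounts of 1 and 0.1). It came to -0.10 with the trend removed (adjusted p = 0.397) and to -0.06 with the covariate (0.999). The other carboxylate carriers were not called, with Slc25a1 at -0.10, Slc25a11 (oxoglutarate) at -0.07 and Slc25a21 (oxoadipate) at -0.07 on the log2 scale.

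**Figure D4:**
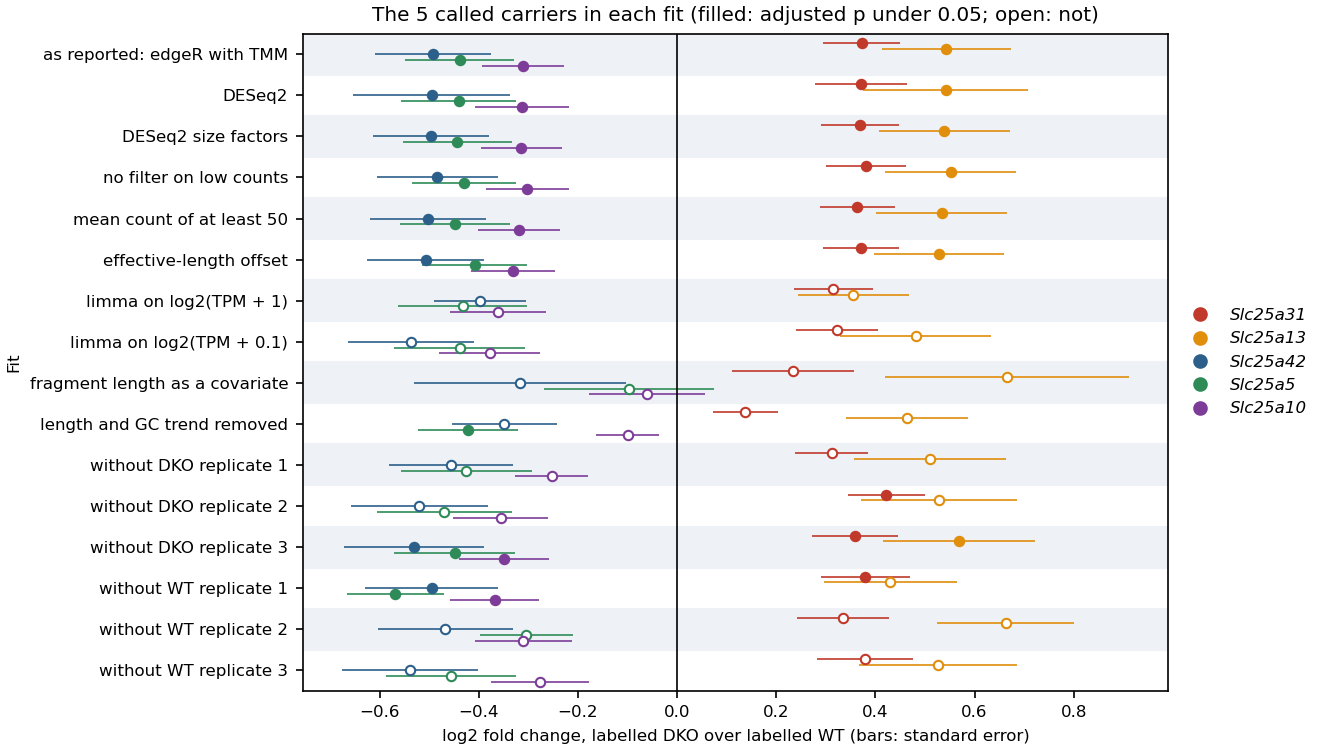
Log2 fold change with its standard error of the 5 called carriers in each fit, filled where the adjusted p was under 0.05. Every point of Slc25a31 and Slc25a13 lies above 0 and every point of the other three below 0, but in the fits on TPM, with the covariate, with the trend removed or without DKO replicate 1, WT replicate 2 or WT replicate 3 the single filled point is that of Slc25a5 with the trend removed.

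Among the 10 carriers of amino acids and carnitine, Slc25a13 alone was called, and the group had a median log2 fold change of -0.16. Slc25a29, Slc25a22, Slc25a20 and Slc25a38 also had an unadjusted edgeR p under 0.05, as did 31.7% of all tested genes. Slc25a38 was at -0.25 on the log2 scale (edgeR adjusted p = 0.137). Slc25a29, a carrier of basic amino acids, had 1.23, 1.05 and 1.13 CPM in libraries labelled DKO and 1.63, 1.79 and 1.75 CPM in those labelled WT. The groups did not overlap, and its log2 fold change of -0.61 was the largest in size of all 45 members (SE 0.180), but it was not called (edgeR adjusted p = 0.0513). With a mean count of at least 50 required, it passed (adjusted p = 0.0396; range over 14 fits 0.0396 to 0.999). Slc25a22, a glutamate carrier, had 2.04, 2.14 and 2.25 CPM against 2.81, 4.12 and 2.59 CPM, with a difference of -0.57 on the log2 scale (SE 0.188; adjusted p = 0.0675 by edgeR). Its groups did not overlap, and WT replicate 2 was again the highest. Slc25a20, which exchanges acylcarnitine for carnitine in fatty acid oxidation, had a log2 fold change of 0.24 (edgeR adjusted p = 0.0809). Slc25a2 differed little, at 48.9, 50.2 and 58.0 TPM against 54.1, 56.9 and 60.5 TPM (log2 fold change -0.11; edgeR adjusted p = 0.389).

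Neither glutathione carrier was called by edgeR, and 1 of them, Slc25a40, had an unadjusted p under 0.05. Slc25a39 had 516, 586 and 565 CPM in libraries labelled DKO and 631, 547 and 594 CPM in those labelled WT, with overlapping groups and a difference of -0.09 on the log2 scale (SE 0.080; adjusted p = 0.484 by edgeR). Slc25a40 had 8.05, 6.998 and 6.71 CPM against 5.92, 4.45 and 5.85 CPM without overlap, at 0.42 on the log2 scale (SE 0.134; edgeR adjusted p = 0.0602). For each Slc25a40 transcript there were 119 to 154 Slc25a39 transcripts in libraries labelled DKO and 184 to 221 in those labelled WT by TPM. That ratio was chosen after the values were seen.

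None of the 4 ATP-Mg/phosphate carriers, which set the size of the matrix adenine nucleotide pool, was called by edgeR (2 of the 4 had an unadjusted p under 0.05). Slc25a25 had a log2 fold change of -0.21 (edgeR adjusted p = 0.0687), Slc25a23 one of -0.22 (0.285), Slc25a24 one of 0.30 (0.095) and Slc25a41 one of 0.05 (0.818). Slc25a25 was also the only member with fractional counts, in all 6 libraries, so RSEM split some of its fragments between genes. The phosphate carrier Slc25a3 had 80.8, 81.2 and 97.3 TPM against 88.7, 99.2 and 87.8 TPM, with overlapping groups and a difference of -0.06 on the log2 scale (SE 0.0778; adjusted p = 0.632 by edgeR).

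Among the 9 cofactor and nucleotide carriers, Slc25a42 was the only call. Slc25a33 had 43.5, 44.8 and 45.5 TPM in libraries labelled DKO and 49.0, 51.6 and 53.1 TPM in those labelled WT, without overlap, but did not pass (-0.16 on the log2 scale, SE 0.0691; adjusted p = 0.142 by edgeR). The pyrimidine nucleotide carrier Slc25a36 was at 0.17, the S-adenosylmethionine carrier Slc25a26 at 0.13 and the NAD carrier Slc25a51 at -0.12 on the log2 scale, all with overlapping groups. Slc25a17 was at 0.20 and not called (edgeR adjusted p = 0.183). Its groups did not overlap in CPM (9.52 to 10.8 against 8.47 to 9.46) but did in TPM. None of the 3 uncoupling protein relatives was called by edgeR (0 with an unadjusted p under 0.05; log2 fold changes from -0.22 to 0.03). Of the 9 members with other or unassigned substrates none was called (2 with an unadjusted p under 0.05, Slc25a47 and Slc25a34). Slc25a47, a carrier known from liver, had 1.37, 1.93 and 1.88 CPM against 2.66, 2.78 and 2.36 CPM, without overlap (-0.58 on the log2 scale, SE 0.179; adjusted p = 0.0564 by edgeR). Slc25a46, an outer-membrane member involved in mitochondrial shape, was at 0.16 (edgeR adjusted p = 0.221).

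The length listed for a gene depends on which of its transcripts RSEM found abundant, and it varied between libraries for 9 carriers. For 0 of these 9 did the groups not overlap, against 16.8% of the 4458 tested genes with a varying length. The largest difference was in Slc25a14, at 1591 ± 27.1 against 1531 ± 73.4 bases (SD, n = 3 each; exact permutation test, two-sided, p = 0.3, adjusted over the 9 carriers p = 0.9). With 3 libraries a group this test cannot go below 0.1, and no member reached that value.

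Genes that work with the carriers were read from 3 lists. Among 4 tested proteins of the carrier fold under other symbols, Mtch1, an outer-membrane member, fell from 22.9, 25.2 and 22.4 CPM in libraries labelled WT to 14.7, 18.2 and 17.0 CPM in those labelled DKO (-0.50 on the log2 scale, SE 0.0977; adjusted p = 0.0253 by edgeR). Its groups did not overlap. Its call ended without DKO replicate 1, WT replicate 2 or WT replicate 3 (adjusted p = 0.0996, 0.0817 and 0.0993), with the covariate (0.999) and with the trend removed (0.0840; range over 15 fits 0.000375 to 0.999). Mtch2, the insertase relative with 204 to 218 against 227 to 229.9 TPM, was at -0.06 (adjusted p = 0.567). Ucp2 was at -0.32 (adjusted p = 0.0541) and Ucp3 at -0.09 (adjusted p = 0.805). Ucp1 did not pass the filter.

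Of 15 genes for the import of carriers into mitochondria, 3 fell and 0 rose (20.0% called, beside 10.8% called and 5.1% called lower over all tested genes), and the list had a median log2 fold change of -0.01. Nothing particular to the list is drawn from a count of 3. The 3 that fell encode small chaperones of the space between the membranes, which hold carriers on their way to the inner membrane. Timm13 had 18.2, 20.7 and 19.4 CPM in libraries labelled DKO against 26.4, 27.6 and 26.4 CPM (-0.47 on the log2 scale, SE 0.0808; adjusted p = 0.0233 by edgeR). Timm10 had 8.07, 8.29 and 9.56 CPM against 11.2, 12.9 and 11.9 CPM (-0.47, SE 0.103; adjusted p = 0.0288), and Timm10b 4.97, 7.45 and 5.57 CPM against 9.87, 10.7 and 9.21 CPM (-0.73, SE 0.144; adjusted p = 0.0255). In all 3 genes the groups did not overlap. Of the other genes on the list, Timm9 was at 0.05, Timm8b at -0.12 and the channel Timm22 at 0.08 on the log2 scale. Tomm40 was at -0.29, Tomm22 at 0.21 and Tomm70a at 0.21, none called (edgeR adjusted p = 0.0517, 0.0815 and 0.131). Tomm40 and Tomm22 had no overlap between the groups in CPM. Exons of Timm13 and Timm10b overlap genes on the opposite strand, and those of Timm10b also Gm45799 on the same strand, so their counts are uncertain. Without DKO replicate 1, WT replicate 2 or WT replicate 3, the adjusted p was 0.0980, 0.0706 and 0.0993 for Timm13, 0.122, 0.105 and 0.101 for Timm10, and 0.106, 0.0789 and 0.0993 for Timm10b. Timm10 was also not called without DKO replicate 2 (0.0679) or with limma (0.0605 and 0.0601), and none of the 3 was called with the covariate (0.999 each) or with the trend removed (0.0951 for Timm13, 0.157 for Timm10 and 0.0536 for Timm10b). Over the 15 other fits, the lowest adjusted p was 0.000173, 0.0043 and 0.000224 in the same order.

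Of 38 tested partners of the exchanges, 2 rose and 1 fell (7.89% called, beside 10.8% over all tested genes), with a median log2 fold change of -0.08. Vdac3, an outer-membrane pore through which carrier substrates pass and which sperm motility needs, had 427, 359 and 391 CPM in libraries labelled DKO against 302, 272 and 304 CPM, without overlap (0.42 on the log2 scale, SE 0.0831; adjusted p = 0.0255 by edgeR). Its relatives Vdac2 and Vdac1 were at 0.25 (adjusted p = 0.0577) and -0.21 (0.190) and were not called. Pank3, a kinase that starts coenzyme A synthesis, had 33.1, 31.5 and 28.8 CPM against 26.0, 23.3 and 23.9 CPM (0.35, SE 0.0841; adjusted p = 0.0339). Mdh2, the matrix malate dehydrogenase of the shuttle, had 29.1, 31.5 and 31.5 CPM against 33.7, 41.6 and 38.4 CPM (-0.30, SE 0.0881; adjusted p = 0.0495). The groups did not overlap in either. The other shuttle enzymes Got1, Got2 and Mdh1 were at -0.05, -0.19 and -0.20 and not called. Vdac3 lost its call without DKO replicate 1, WT replicate 2 or WT replicate 3 (adjusted p = 0.1005, 0.0854 and 0.0993) and with the covariate (0.999; lowest over 15 fits 0.000182). Pank3 and Mdh2 passed in 7 and 6 of 15 other fits. Without DKO replicate 1, DKO replicate 2, WT replicate 2 and WT replicate 3, in that order, their adjusted p was 0.128, 0.0771, 0.128 and 0.109 for Pank3 and 0.166, 0.0938, 0.183 and 0.141 for Mdh2. With the trend removed Pank3 came to 0.0301 on the log2 scale (adjusted p = 0.827) and Mdh2 to -0.11 (0.363), and with the covariate to 0.12 and -0.045 (0.999 each). Both were also not called with limma on log2(TPM + 1) (0.118 for Pank3 and 0.0989 for Mdh2), nor Mdh2 with the effective-length offset (0.0602). The lowest adjusted p was 0.00642 for Pank3 and 0.0202 for Mdh2.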

How the data were processed

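RNA was sequenced from testes in 6 libraries, with 1 deposited table each. The submitters' processing notes list STAR 2.7.0f, RSEM 1.2.31, DESeq2 1.12.3 and mm10. Strand handling and read filters are not given in the sources used here. Per the file headers, the authors' tables hold RSEM expected counts (estimated fragments per gene, fractional where shared), TPM, FPKM, length and effective length for 24411 genes. The deposited FPKM values were not used. The deposited TPM values are scaled by effective length and served for levels between genes.

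Expected counts were rounded. Genes were kept by filterByExpr (edgeR 4.0.16), which left 17110, scaled by TMM and tested by the quasi-likelihood test on genotype over all 6 libraries, with Benjamini-Hochberg adjustment over all tested genes and a threshold of 0.05. The standard error is the log2 fold change divided by the square root of F. CPM values are TMM-scaled. Alternatives used DESeq2 1.42.0, limma 3.58.1 (genes with a mean TPM of at least 0.1), other filters, offsets and a covariate; the offset that removes length and GC trends (mgcv 1.9.3) was chosen after seeing the data. Fragment length was read from the gap between the 2 deposited lengths, as its median over genes of more than 3000 bases plus 1. Groups come from the genotype label. Replicates are numbered in deposition order and do not pair animals. The series text speaks of 3 mice a group without saying how testes were pooled or split. The p-values therefore set the group difference against the spread between these samples, which may not be the spread between animals.

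Individually described were the ADP/ATP carriers, all called members, the 5 with the highest TPM in libraries labelled WT, the 3 uncalled with the largest change and called list members. Other carriers were named to describe their group, after their values were seen. In the text and figures, 1 carrier is counted with the others but not reported here by itself. Members and lists were chosen with earlier results of these data known. Timm29 was matched through an older symbol, and Mpc1l was not matched. Positions and exon overlaps come from RefSeq GRCm38.p6 and GENCODE M21.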

Additional observations from a re-analysis of the deposited data

How the results depend on the processing

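The count of called carriers, 5, was 5 to 7 with DESeq2 (7), DESeq2 size factors, other count filters and the effective-length offset. These fits called 9.71 to 14% of all genes (DESeq2 13.7%). It was 0 (0 higher and 0 lower) with limma on log2(TPM + 1) and on log2(TPM + 0.1), where 13 carriers (28.9%) had an unadjusted p under 0.05 in each, beside 26.9% and 27.1% of all genes, and 0 (0 higher and 0 lower) in edgeR with the fragment length as a covariate, where 2 did (4.44%, beside 3.19%). In the reported fit 15 did (33.3%, beside 31.7%). That covariate does not overlap between the groups. With the length and GC trend removed the count was 1 (0 higher and 1 lower), Slc25a5, beside 3% of all genes called. Leaving out a replicate gave 0 to 8 carriers (0 to 3 higher, 0 to 5 lower), beside 0.0402 to 17.7% of all genes called. The 8 came without DKO replicate 3, where 17.7% of all genes were called. The count was 0 without DKO replicate 1, WT replicate 2 or WT replicate 3, with 11 carriers (24.4%) at an unadjusted p under 0.05 in each. Of all genes, 20.9%, 21.8% and 24.8% had such a p in these fits.

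Over all genes, 1856 were called (984 higher, 872 lower). DESeq2 called 2895, limma 475 on log2(TPM + 1) (171 higher, 304 lower) and 538 on log2(TPM + 0.1) (196 higher, 342 lower), the covariate fit 1 and the trend-removed fit 514 (318 higher, 196 lower). Leaving out a replicate gave 7 to 3029. Of the partner lists, 7 genes were called, against 11 with DESeq2, 4 with limma on log2(TPM + 1), 0 with the covariate and 2 with the trend removed, and 0 to 11 without a replicate. In the same order, 10.8%, 13.7%, 2.6%, 0.00584% and 3% of all genes were called, and 0.0402 to 17.7% without a replicate. The log2 fold change turned sign for 18 of the 45 carriers with the covariate, for 9 with the trend removed and for 0 to 4 in each other fit. Among the carriers described one by one under the rule, it turned for Slc25a4 (0.25), Slc25a3 (0.14) and Slc25a2 (0.045) with the covariate and for Slc25a39 (0.15) with the trend removed, none of them called. The 5 called carriers kept their sign in all 15 other fits each. The cause of these changes was not tested.

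The summed carrier level differed by -7.62% between the groups and by -10.5 to -5.46% without a replicate. The share of Slc25a31 differed by 9.19 percentage points, and by 7.35 to 11.0 without a replicate. The share was not recomputed for the covariate or the trend. With the covariate, Slc25a31, Slc25a4 and Slc25a5 were at 0.23, 0.25 and -0.10 on the log2 scale. With the trend removed they were at 0.14, -0.10 and -0.42. Carriers whose weighted length did not overlap numbered 0, and 0 to 3 without a replicate. No paired analysis was possible because the replicate numbers follow deposition order and the labels name no shared litter, animal or batch. Of the carriers, Slc25a48, with 4 to 23 counts per library, is the one most limited by depth.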

Other observations

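Of the 45 carriers, 4 pairs lie within 50000 bases of each other. Slc25a29 and Slc25a47, 13957 bases apart on chromosome 12, had similar log2 fold changes of -0.61 and -0.58, neither called. Slc25a5 and Slc25a43, 18290 bases apart on chromosome X, were at -0.44 (called) and -0.24 (not called). Slc25a24 and Slc25a54 on chromosome 3 were at 0.30 and 0.07, and Slc25a23 and Slc25a41 on chromosome 17 at -0.22 and 0.05, none called. X-linked members numbered 4 in all: Slc25a5, Slc25a14, Slc25a43 and Slc25a53, the last at -0.07 and Slc25a14 at 0.03 on the log2 scale. Exons of 13 carriers overlapped another annotated gene, and 35 carriers had a single listed transcript.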
